A study of Mus with 6 samples.

Results

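The 6 transcripts described here are the mRNAs of complexes III, IV and V of oxidative phosphorylation that are encoded by the mitochondrial genome: mt-Cytb of complex III, mt-Co1, mt-Co2 and mt-Co3 of complex IV, and mt-Atp6 and mt-Atp8 of complex V. They were taken as 6 named rows of a table of read counts for 35304 Ensembl gene IDs, and all 6 passed the filter on low counts, which kept 24935 IDs. They were chosen by what they encode and with their counts and fold changes between IPA and untreated libraries in this table already known. Those differences are therefore given as a description, with no p-value for any transcript. Where the transcripts under a p threshold are counted below, the counts describe the choice and carry no evidence of their own. RNA sequencing was done on 4T1, an established mouse mammary carcinoma cell line, with 3 samples exposed to isopimaric acid (IPA) at 10 µg/mL for 24 h and 3 untreated samples. IPA is a diterpene resin acid of conifers, which the series title calls an ion channel regulator. The labels of the untreated samples name no treatment and no vehicle. Both groups were grown in RPMI medium with fetal bovine serum and carry no other named agent or allele, and total RNA was taken with Trizol. The series title names calcium and oxidative phosphorylation pathways, and the comparison of IPA with untreated cells bears on the mitochondrially encoded part of the second.

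Oxidative phosphorylation passes electrons along protein complexes of the inner mitochondrial membrane and uses the proton gradient they build to make ATP. A few core subunits are encoded in the mitochondrial DNA, and all other subunits in the nucleus. The mitochondrial genes are read as long transcripts covering many genes, which are cut into single mRNAs, mostly at the transfer RNAs between them. The messages for mt-Atp8 and mt-Atp6 overlap and stay together on the same mRNA.

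In the RefSeq annotation of GRCm38, the build named by the submitters' processing notes, the genes lie on chromosome MT in the order mt-Co1 (ENSMUSG00000064351, start 5328, end 6872, 1545 bases), mt-Co2 (ENSMUSG00000064354, start 7013, end 7696, 684 bases), mt-Atp8 (ENSMUSG00000064356, start 7766, end 7969, 204 bases), mt-Atp6 (ENSMUSG00000064357, start 7927, end 8607, 681 bases), mt-Co3 (ENSMUSG00000064358, start 8607, end 9390, 784 bases) and mt-Cytb (ENSMUSG00000064370, start 14145, end 15288, 1144 bases). All 6 are annotated as protein coding. The coding regions of mt-Atp8 and mt-Atp6 share 43 bases, and those of mt-Atp6 and mt-Co3 share 1 base. Reads from a shared stretch could be given to either gene, so the values of these neighbours are not fully separate.

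Total counts ran from 3410411 to 43593509 in the IPA libraries and from 20257983 to 58924711 in the untreated libraries, and IPA replicate 1 was the shallowest of all. Untreated replicate 2 stood apart: its correlation in log2 CPM (CPM, counts scaled to a library total of 1000000) with the other 5 libraries was 0.781 to 0.817, against 0.919 to 0.987 among those 5. They were computed across 24935 IDs, and IDs are not independent replicates. Fold changes, counts of calls, differences in ratio and orders of levels are therefore given with and without that library. The IDs of other genes could not be matched to names, so cell type markers, of 4T1 or of contaminating cells, were left out, as were the other mitochondrial or the nuclear genes of the pathway. The smallest count of any of the 6 transcripts was 1890, for mt-Cytb in IPA replicate 1, where the exact Clopper-Pearson 95% interval ran from 529 to 580 CPM around 554 CPM. Such intervals cover counting error only, and counting error was small beside the spread between libraries.

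All 6 transcripts had a lower mean level with IPA. Summed over the 6, their share of all counts was 2.21%, 1.61% and 1.39% in IPA replicates 1, 2 and 3, against 6.35%, 4.54% and 4.57% in untreated replicates 1, 2 and 3. Every IPA library lay below every untreated library in this sum. The means were 1.74 ± 0.423% with IPA and 5.15 ± 1.04% in untreated cells (SD, n = 3 each), a difference of -3.41 percentage points, or -3.72 without untreated replicate 2. IPA replicate 1 was the highest of the IPA libraries for each of the 6 transcripts. These are shares of a library's reads: less of a transcript per cell, fewer cells that express it and more of other RNAs cannot be told apart in bulk samples.

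mt-Cytb encodes cytochrome b, the heme-bearing core of complex III where ubiquinol is oxidised. It had 554, 409 and 344 CPM in IPA replicates 1, 2 and 3, against 4094, 1143 and 3136 CPM in untreated replicates 1, 2 and 3. The groups did not overlap, and untreated replicate 2 was the lowest untreated library. The mean was 436 ± 108 CPM with IPA and 2791 ± 1506 CPM in untreated cells (SD, n = 3 each). It was the ID with rank 215 by mean CPM in IPA cells and rank 15 in untreated cells. The log2 fold change fitted by edgeR (IPA over untreated) was -2.84 ± 0.43 (SE) over all 6 libraries and -3.17 ± 0.19 without untreated replicate 2.

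mt-Co1 encodes the catalytic subunit of cytochrome c oxidase, complex IV, which holds the site where oxygen is reduced. By mean CPM it stood at rank 3 of all IDs in IPA cells and at rank 1 in untreated cells. Its level was 13533, 10038 and 8843 CPM in IPA replicates 1, 2 and 3, and 32504, 20884 and 22871 CPM in untreated replicates 1, 2 and 3. No IPA library reached the lowest untreated library. The log2 fold change was -1.46 ± 0.35 (SE) over all 6 libraries and -1.47 ± 0.21 without untreated replicate 2, the smallest difference of the 6 transcripts in both comparisons.

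mt-Co2 encodes the subunit of complex IV that takes electrons from cytochrome c. It had 2030, 1299 and 1050 CPM in IPA replicates 1, 2 and 3, against 8272, 15415 and 5790 CPM in untreated replicates 1, 2 and 3. The groups did not overlap, and here untreated replicate 2 was the highest library, at 2.19 times the mean of untreated replicates 1 and 3. The log2 fold change was -3.09 ± 0.58 (SE) over all 6 libraries, the largest difference of the 6, and -2.38 ± 0.24 without untreated replicate 2, where mt-Cytb differed more. The 8.53-fold lower level over all 6 libraries thus became 5.22-fold lower without that library.

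mt-Co3 encodes a core subunit of complex IV that carries no metal centre. It had 1173, 830 and 689 CPM in IPA replicates 1, 2 and 3, against 4520, 1944 and 3392 CPM in untreated replicates 1, 2 and 3. All 3 IPA values lay below the lowest untreated value. The log2 fold change was -2.06 ± 0.34 (SE) over all 6 libraries and -2.25 ± 0.20 without untreated replicate 2.

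mt-Atp6 encodes subunit a of ATP synthase, which with the rotating c-ring forms the path for protons. It had 3938, 2842 and 2427 CPM in IPA replicates 1, 2 and 3, and 11124, 5334 and 8467 CPM in untreated replicates 1, 2 and 3. The groups did not overlap, and untreated replicate 2 was again the lowest untreated library. The log2 fold change was -1.64 ± 0.34 (SE) over all 6 libraries and -1.79 ± 0.20 without untreated replicate 2.

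mt-Atp8 encodes a small membrane subunit of the ATP synthase stator. It had 888, 672 and 595 CPM in IPA replicates 1, 2 and 3, against 2970, 659 and 2068 CPM in untreated replicates 1, 2 and 3. This was the transcript whose groups overlapped in CPM on library totals: untreated replicate 2 lay below 2 of the IPA libraries. The overlap depends on that scale. The TMM factors used in the edgeR fits were 0.753 for untreated replicate 2 and 1.06 to 1.11 for the IPA libraries. Dividing by them would put untreated replicate 2 above the IPA libraries. Untreated replicate 2 stood at 0.262 of the mean of untreated replicates 1 and 3, its lowest such value among the 6 transcripts. The log2 fold change was -1.55 ± 0.45 (SE) over all 6 libraries and -1.92 ± 0.18 without untreated replicate 2.

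**Figure D1:**
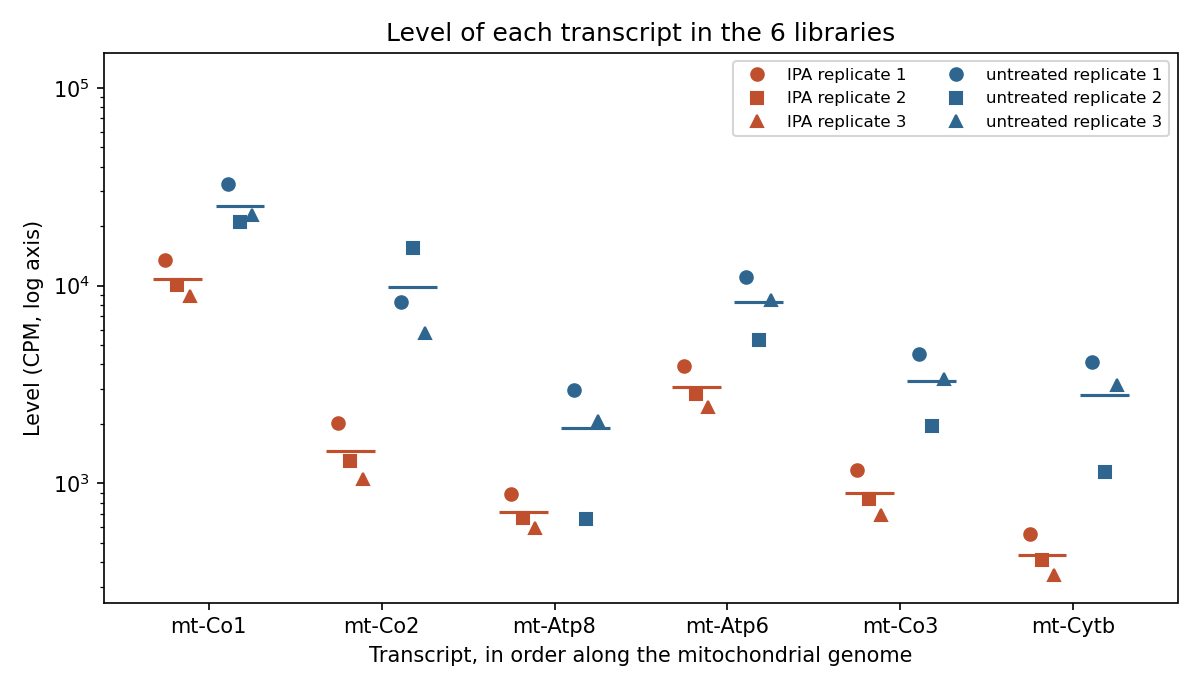
Level of each transcript in CPM on library totals (log axis) in the 3 IPA and 3 untreated libraries, with symbols for the replicate and bars at the group mean. The IPA points lie below the untreated points except for mt-Atp8, where untreated replicate 2, at 659 CPM, lies below 2 IPA libraries.

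Read against all IDs, the median log2 fold change of the 6 transcripts was -1.85 over all 6 libraries, where the median over the 24935 tested IDs was -0.08, and 4.82% of the IDs had a more negative fold change than that median. Without untreated replicate 2 the median of the 6 was -2.09, against -0.04 over 25592 IDs, with 0.824% of IDs more negative. In CPM on library totals, without TMM factors, 5 of the 6 had all IPA libraries below all untreated libraries, where 6.38% of the tested IDs did. Set against untreated replicates 1 and 3 alone, 6 of 6 did, where 13.8% of IDs did.

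The number of transcripts called depended on untreated replicate 2. Over all 6 libraries, edgeR's quasi-likelihood test called 0 of the 6 at an adjusted p (Benjamini-Hochberg over all tested IDs) under 0.05, and also called 0 IDs lower in all (0%). At an unadjusted p under 0.05 it had 6 of the 6 lower, where 4.38% of the IDs were lower. DESeq2 on the same libraries called 5 of the 6 lower, all but mt-Atp8, beside 0.341% of the 18483 IDs to which it gave an adjusted p. With limma-voom 0 of the 6 were called, and 0 of the 24935 IDs in either direction. Without untreated replicate 2, edgeR called 6 of the 6 lower, where 2.2% of the 25592 IDs were called lower. Each of the 6 then differed by a fold of 2 or more, beside 1.08% of IDs called lower by that much. Since the transcripts were chosen with this contrast known, these counts describe the choice and carry no evidence of their own. No source states that replicates were separate cultures. The SEs and calls therefore measure the spread among these 6 samples alone, and part or all of it may be technical.

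**Figure D2:**
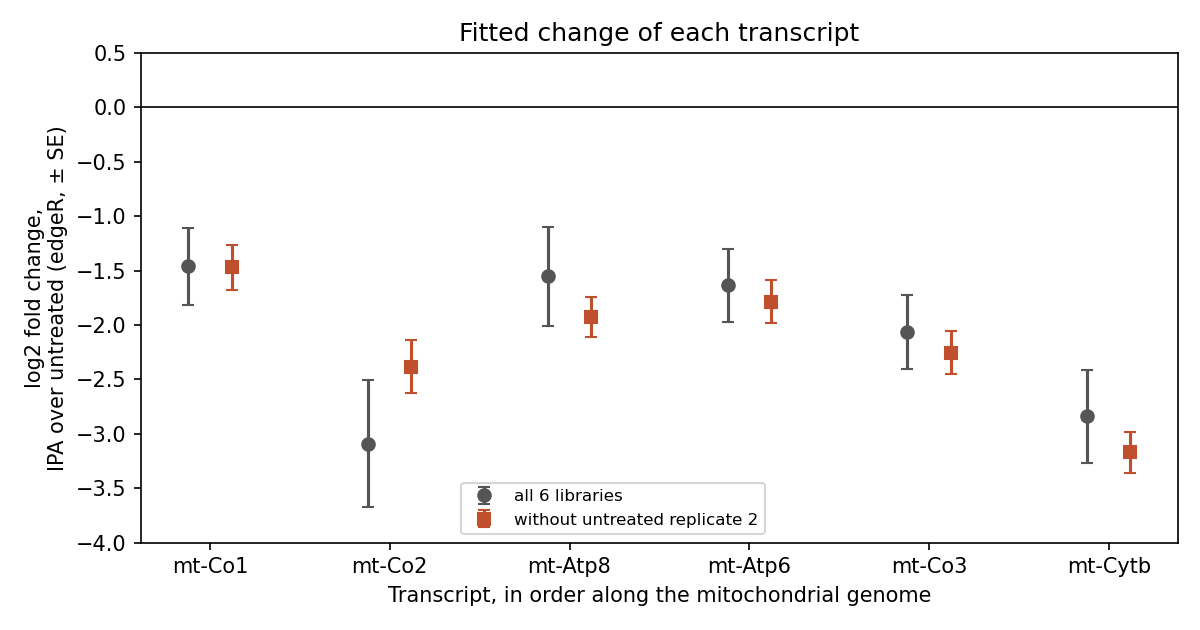
Fitted log2 fold change (IPA over untreated, edgeR, with SE) of each transcript over all 6 libraries and without untreated replicate 2, in gene order along the mitochondrial genome. Every value is below 0, and mt-Co2 moved most, with -3.09 over all 6 libraries and -2.38 without that library.

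The 6 transcripts did not differ by the same amount. Along the genome, without untreated replicate 2, mt-Co1 at the start of the order had the smallest difference and mt-Cytb, the farthest along, the largest. But mt-Co2, next to mt-Co1, had the second largest, and over all 6 libraries it had the largest, at -3.09 against -2.84 for mt-Cytb. Under some alternatives on all 6 libraries mt-Atp8 had the smallest difference. With limma-voom it had -1.42 against -1.45 for mt-Co1, and with a replicate block -1.41 against -1.46. Spearman's rho between gene start and log2 fold change was -0.60 without untreated replicate 2 and -0.43 over all 6 libraries (n = 6 transcripts). With gene length rho was -0.03 and 0.03. These are descriptions over transcripts that share libraries and, in part, reads.

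Because each library's scaling cancels in a ratio of transcripts, the make-up of their summed counts shows the same inequality without any normalization. mt-Co1 took 61.2%, 62.4% and 63.4% of the summed counts of the 6 in IPA replicates 1, 2 and 3, against 51.2%, 46.0% and 50.0% in untreated replicates 1, 2 and 3. The groups did not overlap. mt-Co2 took 9.18%, 8.07% and 7.53% in the IPA replicates and 13.0%, 34.0% and 12.7% in the untreated replicates, also without overlap. These shares use each ID alone. For mt-Co2, mt-Co3 and mt-Atp6 another ID had nearly the same counts, as described below. Adding those counts would lower the mt-Co1 share in every library, and the shares on that scale were not computed.

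mt-Cytb took 2.51%, 2.54% and 2.47% of the summed counts in IPA replicates 1, 2 and 3, against 6.45%, 2.52% and 6.86% in untreated replicates 1, 2 and 3. The mt-Cytb share of untreated replicate 2 lay within the range of the IPA libraries, although its mt-Cytb level in CPM was above theirs. mt-Co3 took 5.13 ± 0.184% with IPA and 6.27 ± 1.73% in untreated cells (SD, n = 3 each), with untreated replicate 2 the lowest of all 6 libraries at 4.28%. For mt-Atp6 the share was 17.6 ± 0.205% with IPA and 15.9 ± 3.65% in untreated cells, and for mt-Atp8 it was 4.15 ± 0.127% and 3.55 ± 1.82%. Without untreated replicate 2 the direction of both turned round, the differences being -0.39 percentage points for mt-Atp6 and -0.45 for mt-Atp8, against 1.69 and 0.601 with it.

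**Figure D3:**
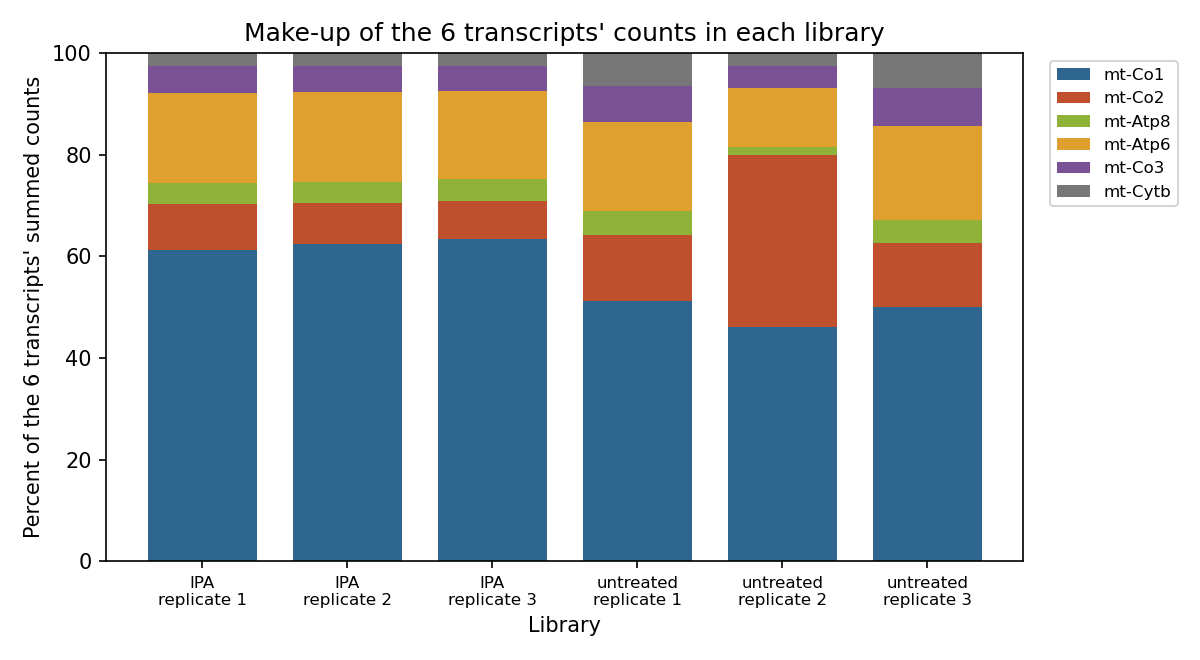
Percent of the summed counts of the 6 transcripts taken by each, with each ID alone, in the 3 IPA and the 3 untreated libraries. The IPA libraries are alike, with mt-Co1 between 61.2% and 63.4%, while untreated replicate 2 differs from the other untreated libraries by an mt-Co2 share of 34.0%.

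Ratios between single transcripts varied less among the IPA libraries than among the untreated libraries, but for most ratios this rested on untreated replicate 2. For the 10 log2 ratios without mt-Co2, the SD ran from 0.0159 to 0.0952 among IPA libraries and from 0.0853 to 0.881 among untreated libraries. For the 5 ratios with mt-Co2 it ran from 0.0965 to 0.189 among IPA libraries and from 0.889 to 1.77 among untreated libraries. In these 5, untreated replicates 1 and 3 alone lay closer together than the IPA libraries did. For mt-Co1 to mt-Co2 they had 1.97 and 1.98, against 2.74 to 3.07 with IPA. They lay farther apart than the IPA libraries for mt-Cytb to mt-Co1, mt-Cytb to mt-Atp8, mt-Co1 to mt-Atp6 and mt-Atp6 to mt-Atp8. A few of these ratios are given here. The log2 ratio of mt-Cytb to mt-Co1 counts was -4.61, -4.62 and -4.68 in IPA replicates 1, 2 and 3, against -2.99, -4.19 and -2.87 in untreated replicates 1, 2 and 3. The IPA libraries were lower than every untreated library, with untreated replicate 2 lying between the others. The mean difference was -1.29, and -1.71 without untreated replicate 2.

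The ratio of mt-Cytb to mt-Atp8 kept its size with or without that library. Its log2 value was -0.68, -0.72 and -0.79 in IPA replicates 1, 2 and 3 and 0.46, 0.79 and 0.60 in untreated replicates 1, 2 and 3. mt-Cytb thus had fewer counts than mt-Atp8 in every IPA library and more in every untreated library. The mean difference was -1.35, or -1.26 without untreated replicate 2.

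The ratio of mt-Co3 to mt-Atp6, which are adjacent genes, differed less but without overlap. It was -1.75, -1.78 and -1.82 on the log2 scale in IPA replicates 1, 2 and 3, against -1.30, -1.46 and -1.32 in untreated replicates 1, 2 and 3. The mean difference was -0.42, or -0.47 without untreated replicate 2.

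For mt-Cytb against mt-Co2, the transcripts with the largest fitted differences, the log2 ratio was -1.87, -1.67 and -1.61 in IPA replicates 1, 2 and 3, against -1.01, -3.75 and -0.88 in untreated replicates 1, 2 and 3. The groups overlapped, since untreated replicate 2 lay below every IPA library and the other untreated replicates above them. The mean difference was 0.17 over all 6 libraries and turned to -0.77 without untreated replicate 2.

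The ratio of mt-Atp6 to mt-Atp8, which share an mRNA, was 2.15, 2.08 and 2.03 on the log2 scale in IPA replicates 1, 2 and 3, against 1.91, 3.02 and 2.03 in untreated replicates 1, 2 and 3. The groups overlapped. The mean difference was -0.23 over all 6 libraries and 0.12 without untreated replicate 2, the library with the highest ratio of the 6.

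For 3 of the 6 transcripts the count table held another ID with nearly the same counts in every library. ENSMUSG00000102070 was within 0.804% of mt-Co2 in each library, ENSMUSG00000100862 within 0.453% of mt-Atp6, and another ID within 2.37% of mt-Co3. For mt-Atp6, ENSMUSG00000100862 had 13446, 123691 and 99705 counts in IPA replicates 1, 2 and 3, where mt-Atp6 had 13431, 123905 and 99598. In untreated replicates 1, 2 and 3 ENSMUSG00000100862 had 225684, 315116 and 445611 counts, where mt-Atp6 had 225353, 314318 and 447638. No ID came within 3% of mt-Cytb, mt-Co1 or mt-Atp8, for which the nearest ID differed by 47.1%, 73.6% and 49.2% in at least 1 library. The files give the 3 extra IDs no name. RefSeq for GRCm38 lists a pseudogene, Gm10925, on chromosome 1 from 24613971 to 24614651, with mt-Atp6 among its synonyms and the same length of 681 bases. Whether it is one of these IDs was not tested. The values of mt-Co2, mt-Co3 and mt-Atp6 are uncertain in level, since reads could have been divided between 2 IDs or counted for both. Adding each extra ID to its transcript left the median log2 fold change of the 6 at -1.85. Their near-equal counts in every library fix this outcome, so it does not test how the reads were assigned.

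Levels of different genes can be compared only per length, and the near-identical IDs bear on their order. In CPM per kilobase of gene, each ID alone, the means in IPA cells were 6993 ± 1577 for mt-Co1, 4507 ± 1146 for mt-Atp6, 3521 ± 744 for mt-Atp8, 2134 ± 744 for mt-Co2, 1145 ± 318 for mt-Co3 and 381 ± 94.0 for mt-Cytb (SD, n = 3). In untreated cells they were 16453 ± 4023 for mt-Co1, 12200 ± 4256 for mt-Atp6, 9308 ± 5708 for mt-Atp8, 14365 ± 7306 for mt-Co2, 4191 ± 1647 for mt-Co3 and 2440 ± 1316 for mt-Cytb. Since all 6 are measured in each library, their order can be read within libraries.

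Within 5 of the 6 libraries, the 3 IPA libraries and untreated replicates 1 and 3, the order per length was the same, from mt-Co1 through mt-Atp6, mt-Atp8, mt-Co2 and mt-Co3 to mt-Cytb. Since mt-Atp6 and mt-Atp8 share an mRNA and some bases, the gap between them need not be a difference in mRNA level. In untreated replicate 2 mt-Co2 came first, with 22537 CPM per kilobase against 13517 for mt-Co1, and the other transcripts kept that order. The high untreated mean of mt-Co2 rests on that library: without it, the untreated means were 17920 for mt-Co1, 14384 for mt-Atp6, 12347 for mt-Atp8 and 10279 for mt-Co2, in the order of the IPA cells.

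With the near-identical IDs added, mt-Atp6 led in the 3 IPA libraries and in untreated replicates 1 and 3, and mt-Co2 led in untreated replicate 2. mt-Atp6 then averaged 9015 ± 2295 CPM per kilobase with IPA and 24396 ± 8512 in untreated cells (SD, n = 3 each), or 28752 without untreated replicate 2. mt-Co2 averaged 4258 ± 1485 with IPA and 28720 ± 14633 in untreated cells, or 20536 without untreated replicate 2. On this scale, which adds counts to mt-Co2 and none to mt-Co1, mt-Co2 was below mt-Co1 in every IPA library and above it in every untreated library. With each ID alone it was above mt-Co1 in untreated replicate 2 only. If reads were counted for both IDs, the added scale counts them double. mt-Cytb was lowest in all 6 libraries with or without the added IDs.

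**Figure D4:**
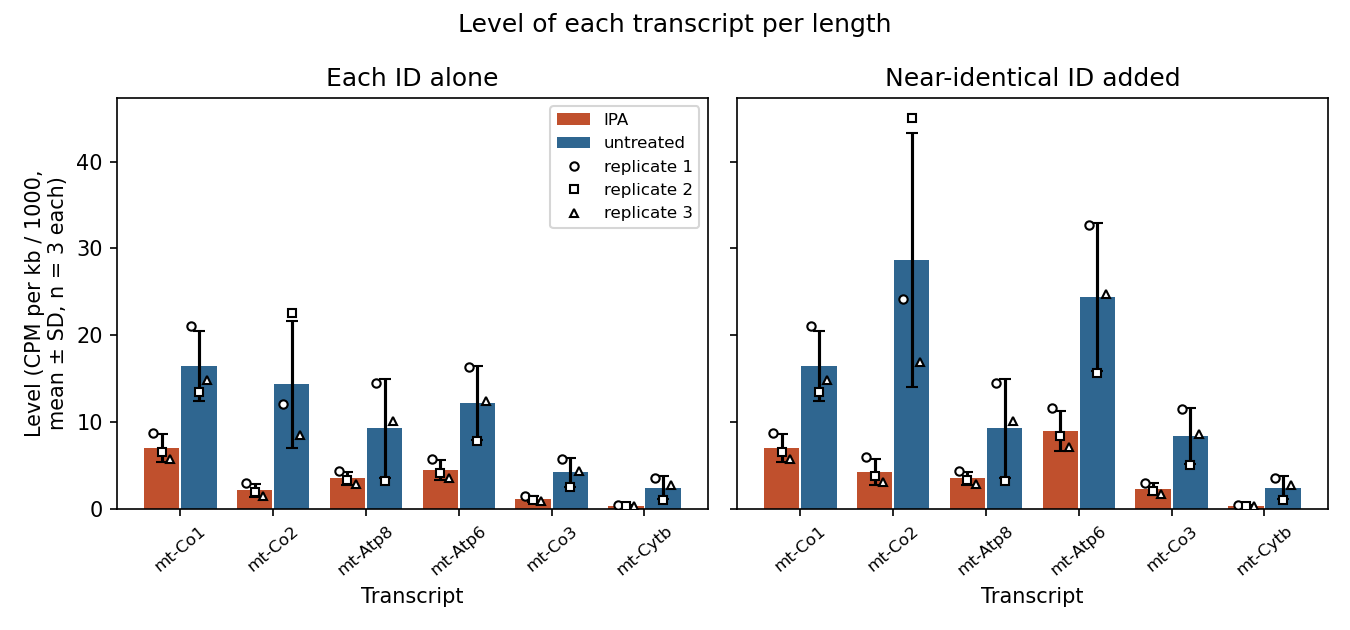
Level per kilobase of gene length (CPM per kb divided by 1000) in IPA and untreated cells, with bars at the mean, error bars for the SD (n = 3 each) and a point for each library, each ID alone on the left and with the near-identical ID added on the right. The untreated mt-Co2 bar is raised by replicate 2, at 22537 CPM per kb on the left, and without that library mt-Co1 leads on the left and mt-Atp6 on the right in both groups.

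With a mean level of at least 10 CPM required, 11142 IDs were candidates for likeness to the 6 transcripts. The 5 other IDs whose log2 CPM followed the mean of the 6 most closely over the 6 libraries had Pearson's r from 0.994 to 0.998. Picking the closest of so many IDs over so few libraries favours a high r. These values are a description over n = 6 libraries that share their depth and composition with the transcripts themselves. The near-identical IDs of mt-Co3 and mt-Atp6 were 2 of the 5. The other 3 have no name in the files. The most abundant of them had 377 ± 92.2 CPM with IPA and 1621 ± 703 CPM in untreated cells (SD, n = 3 each). It was also the ID nearest in counts to mt-Cytb and to mt-Atp8. The least abundant had 27.7 ± 1.39 CPM with IPA and 35.2 ± 2.28 CPM in untreated cells, so it followed them over a far narrower range. Among the 6 transcripts, r with their own mean was 0.987 or higher for 4 of them, 0.856 for mt-Co2 and 0.862 for mt-Atp8. Those 2 were the highest and lowest in untreated replicate 2 relative to untreated replicates 1 and 3. Each transcript is part of that mean, and all were chosen with their lower level known, so a high r is partly built in.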

How the data were processed

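RNA-seq of 3 IPA and 3 untreated samples of 4T1 was analysed from the authors' deposited table of raw counts, whole numbers for 35304 Ensembl gene IDs. The submitters' processing notes name the builds GRCm38 and mm10. The aligner, the counter, and how strand and reads with several matches were treated: not given in the sources used here. Groups and replicate numbers come from the sample titles. The column names of the treated samples abbreviate those titles and were matched by letter and number.

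The members, lists and settings were chosen with earlier results of these data known. The names of the 6 transcripts came with the choice of rows. The RefSeq table pairs 0 IDs with Ensembl, so 14 further lists by symbol, among them nuclear subunits and cell type markers, were not analysed here. The rule for named genes took the 6 transcripts, IDs with near-identical counts and the 5 IDs closest in pattern.

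Counts were compared with edgeR 4.0.16 (robust quasi-likelihood F-test, TMM, filterByExpr) in R 4.3.3 over all IDs. The code was checked on simulated counts with set changes. These held no outlying library, and their dispersion was lowered by choice for the comparison without untreated replicate 2. The check therefore does not bear on calls that depend on that library. The SE is the log2 fold change divided by the square root of F. CPM uses library totals without TMM factors, and log2 CPM a prior count of 2. Near-identical means within 3% in every library. DESeq2 1.42.0 and limma 3.58.1 (voom), other scalings and filters, a replicate block and leaving out samples were alternatives. A level of 3 counts equals 0.88 CPM in IPA replicate 1 and 0.0509 CPM in untreated replicate 2. Within each group, every pair of replicates differed beyond sampling noise (chi-square at least 7.11 per degree of freedom).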

Additional observations from a re-analysis of the deposited data

How the results depend on the processing

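The log2 fold changes of the 6 transcripts were below 0 in 126 of 126 values over 21 alternatives, from -3.39 for mt-Co2 without untreated replicate 3 to -1.09 for mt-Atp8 without untreated replicate 1. This direction was known when the transcripts were chosen. Leaving out 1 sample moved the median of the 6 between -2.09 without untreated replicate 2 and -1.58 without untreated replicate 1, and their summed share difference between -3.72 and -2.82 percentage points. With the near-identical IDs added, a setting chosen after seeing the data, that difference was -5.02 percentage points by construction.

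Counts of calls rested on untreated replicate 2. Leaving out 1 sample gave 0 to 322 higher IDs, 0 to 564 lower IDs and 0 to 6 of the 6 transcripts lower. A count other than 0 arose solely when that library was left out. The 564 lower IDs were 2.2% of 25592 tested. Over all 6 libraries, 1 ID was higher with library totals and 1 with no filter on low counts. DESeq2 gave 22 higher IDs, 63 lower IDs and 5 of the 6 transcripts lower. Its 63 lower IDs were 0.341% of the 18483 with an adjusted p. Without that library, edgeR with IPA replicate 1 also left out gave 719 higher and 763 lower of 24979 IDs. Of 25592 IDs, RLE factors gave 364 higher and 481 lower, and upper-quartile factors 309 and 581. On the same 25592 IDs, library totals gave 690 and 327, and limma-voom 660 and 1009. DESeq2 gave 634 and 660 of 34468 IDs, 17376 of which had no adjusted p. In each of these settings 6 of the 6 transcripts were called lower. Beyond leaving out that library, the cause was not tested. Scaling without the 6 transcripts, also chosen after seeing the data, gave 0 calls.

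Within the summed counts of the 6, leaving out 1 sample moved the share difference (IPA minus untreated, percentage points) of mt-Co1 between 11.7 and 14.3, of mt-Co2 between -15.2 and -4.59, of mt-Co3 between -2.14 and -0.568, of mt-Cytb between -4.15 and -1.98, of mt-Atp6 between -0.395 and 2.99, and of mt-Atp8 between -0.448 and 1.16. The negative values of mt-Atp6 and mt-Atp8 came without untreated replicate 2.

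With the replicate block the counts were 0 higher, 0 lower and 0 of the 6 transcripts, with a median of -1.85. The deviations from the group means correlated at -0.067, 0.0267 and 0.152 between samples of the same number, and 3 of 6 had their best match in their own number, so the numbers were not taken to pair the samples. Leaving out all mitochondrially encoded IDs, and the lists by symbol, were not run, since those IDs have no names here. Depth limits IPA replicate 1 most.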

Other observations

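The near-identical IDs differed from their transcripts by about sampling noise in nearly all libraries. In units of the Poisson standard deviation of the difference, ENSMUSG00000102070 differed from mt-Co2 by -0.26, -1.35 and -0.17 in IPA replicates 1, 2 and 3 and by -0.44, 0.46 and -1.25 in untreated replicates 1, 2 and 3. ENSMUSG00000100862 differed from mt-Atp6 by 0.0915, -0.43 and 0.24 in the IPA replicates and by 0.49, 1.01 and -2.14 in the untreated replicates. The ID near mt-Co3 stayed between -1.38 and 0.52 in 5 libraries and was 5.64 in untreated replicate 2, where it had 117283 counts and mt-Co3 had 114569.

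With the 3 near-identical IDs added, the summed share of the transcripts was 2.28 ± 0.578% with IPA and 7.30 ± 1.28% in untreated cells (SD, n = 3 each).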
